A study of Homo sapiens with 42 samples.

Results

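Small RNA from 3 libraries labelled A7 was compared with that from 3 libraries labelled mock, all 6 made without repair of RNA ends, out of 42 samples in the series. The members were chosen by the sample names alone, and every feature of the deposited table that does not overlap another was used, short structured RNAs first. The series concerns POLR3G and POLR3GL, alternative subunits of RNA polymerase III, and describes knockout of both genes in THP-1 cells, a human monocytic leukaemia line, and knockdown of POLR3G in HEK293T cells, a human embryonic kidney line. A7 is labelled THP-1, and its labels do not say which of the genes was targeted or whether A7 is a single clone. Mock is labelled HEK293T given 200 nM of a control antisense oligonucleotide, and the series text gives 48 h for the oligonucleotide against POLR3G. Transfection was with a lipid reagent, per the labels. By the labels and the series text, A7 and mock differ at once in cell line, gene knockout and oligonucleotide treatment. The effects of these cannot be told apart here. A4 and E4, also labelled THP-1 and made without end repair, are used below as a second reference (3 libraries each), and G8 (3 libraries) enters the estimate of spread. The labels do not say that the 3 libraries of a group came from separate cultures, so a p-value here reflects how far these libraries scatter, which may be technical.

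RNA polymerase III makes short structured RNAs, among them the tRNAs, 5S rRNA, the Y RNAs that bind the Ro protein, the vault RNAs, 7SK, 7SL and U6. Most miRNAs and snoRNAs come from RNA polymerase II transcripts: miRNAs are cut from hairpins and guide silencing complexes through their seed, while C/D and H/ACA snoRNAs are mostly released from introns and guide methylation and pseudouridylation of rRNA. In a kit that ligates adapters to RNA with a 5′ phosphate and a 3′ hydroxyl, leaving out phosphatase and polynucleotide kinase keeps mainly molecules that already carry those ends, such as mature miRNAs.

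A selection of miRNAs that differed between A7 and mock is shown first, with the seed (bases 2 to 8) in capitals, because several share a seed or a primary transcript. MIR132 and MIR212 lie next to each other on chromosome 17 and their 3p arms share a seed, as the first pair shows. MIR363 and MIR20B lie in one cluster on the X chromosome, and the 3p arm of MIR363 has the seed of miR-92a. MIR99A, MIR196A2 and MIR143 were higher in A7.
hsa-miR-132-3p: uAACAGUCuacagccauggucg
hsa-miR-212-3p: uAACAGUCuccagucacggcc
hsa-miR-132-5p: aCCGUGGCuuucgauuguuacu
hsa-miR-212-5p: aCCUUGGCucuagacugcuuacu
hsa-miR-363-3p: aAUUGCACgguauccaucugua
hsa-miR-363-5p: cGGGUGGAucacgaugcaauuu
hsa-miR-20b-5p: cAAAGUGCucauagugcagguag
hsa-miR-99a-5p: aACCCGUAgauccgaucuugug
hsa-miR-196a-5p: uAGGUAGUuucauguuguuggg
hsa-miR-143-3p: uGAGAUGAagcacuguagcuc
These sequences are RefSeq's (GRCh38.p14). A row of the table does not tell the arms apart. Of 501 hairpins with both arms in RefSeq and a count in these libraries, 458 had an arm-length row only at the arm of higher coordinate, whichever arm that is. In 140 of 154 hairpins with a row for the hairpin and a single arm-length row inside it, the arm-length row held at least 99% of the hairpin's counts. Levels below are therefore given per miRNA gene.

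The cell type of the libraries was checked first. MIR142, a miRNA of blood cells, stood at 2091, 3020 and 2411 CPM (edgeR's library-scaled counts of kept features, with TMM factors) in A7 and at 2956, 3152 and 1702 CPM in mock. MIR223, a myeloid miRNA, stood at 393, 482 and 449 CPM in A7 and at 387, 454 and 362 CPM in mock. The groups overlapped for both, while HEK293T, the label of mock, is not a blood cell line. Over the 7 haematopoietic and monocytic miRNAs the summed level was 14957 to 18510 CPM in A7 and 11780 to 17063 CPM in mock. The 14 epithelial and kidney-related miRNAs summed to 232 to 281 CPM in A7 and 203 to 285 CPM in mock, with MIR205 and MIR203A at 0 in all 6 libraries. MIR150, a lymphoid miRNA, was at 0 in all 6 libraries, and the 8 pluripotency miRNAs and 5 muscle miRNAs were each under 1 CPM. Not all lists of other cell types were low. The 6 neural miRNAs, 3 of them under 1 CPM, summed to 2776 to 3465 CPM in A7 and 1825 to 2740 CPM in mock. That sum rests on the miR-9 genes MIR9-1, MIR9-2 and MIR9-3, so it is not a level of several neural miRNAs. The 7 fibroblast and mesenchymal miRNAs summed to 332 to 442 CPM in A7 and 253 to 381 CPM in mock. The libraries labelled mock thus carried MIR142, MIR223 and the summed markers of the monocytic line at levels that overlapped those of A7. MIR155 and MIR146A of that list were present in mock but lower than in every A7 library, as given below. The cell identity of mock is treated as unsettled throughout: mock below means the libraries labelled mock.

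**Figure D1:**
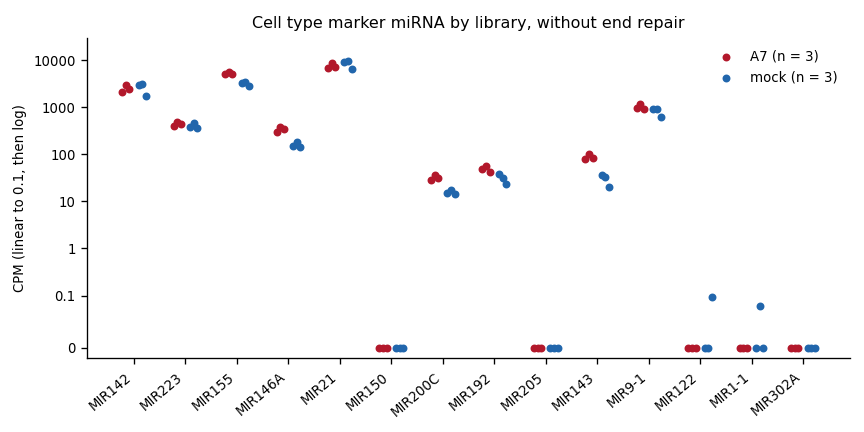
Level in CPM of 14 cell type marker miRNAs in the 3 A7 (red) and 3 mock (blue) libraries, 1 point a library, on an axis that is linear to 0.1 and logarithmic above. MIR142, MIR223, MIR155, MIR146A and MIR21 are high in both groups, and MIR150, MIR205 and MIR302A are at 0 in all 6 libraries.

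The kept features summed to between 9970332 and 12446992 counts in the 6 libraries, and the 10 most abundant features held 38.2% to 41.9% of them. Mock library 3 stood apart from the other two: replicates 1 and 2 of mock differed by a chi-square of 86.4 per feature, against 510.3 for 1 and 3 and 401.3 for 2 and 3. Library 3 differed most in A7 too, at 178.3 for 1 and 3 and 279.4 for 2 and 3, against 98.5 for 1 and 2. C/D snoRNAs took 63.9% ± 3.95 (SD, n = 3) of counts in A7 and 70.2% ± 2.26 in mock, and miRNAs 22.04% ± 2.58 and 16.7% ± 2.38. With 3 libraries a group the exact permutation test (two-sided) cannot go below p = 0.1. It gave 0.2 for C/D snoRNAs and 0.1 for miRNAs (0.60 and 0.45 after Benjamini-Hochberg adjustment over 27 families), and the miRNA libraries did not overlap: 21.3%, 24.9% and 19.9% in A7 against 17.6%, 18.4% and 13.97% in mock. Because shares add to 100%, a fold change of one class depends on the scaling. Of 67 named features that passed in the paired fit described below, 36 passed in the same direction under all 5 scalings tried, and 0 changed sign. Some of them were picked for their values: of all 237 features that passed there, 55 did so under all 5. Named features that did not pass, such as MIR142, MIR21 and RNY4, did change sign.

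Of 1826 features with enough counts, 7 passed the test between A7 and mock (0.383%): 3 were higher in A7 (0.164%) and 4 lower (0.219%), by edgeR's quasi-likelihood test over 15 libraries with Benjamini-Hochberg adjustment. No feature passed with any 1 of the 6 libraries left out. The 3 libraries of one group lay beyond those of the other in 462 features (25.3%), 239 higher (13.1%) and 223 lower (12.2%), so groups that do not overlap are common here. In these bulk libraries, fewer cells of a type and less RNA per cell cannot be told apart. A further limit is the spread itself, which includes G8: without its libraries 84 features passed (4.64% of 1810, with 45 higher, 2.49%, and 39 lower, 2.15%), among them all 7. With the replicate number as a block in a fit of the 6 libraries alone, called the paired fit below, 237 of 1673 features passed (14.2%), 95 higher (5.68%) and 142 lower (8.49%), again with all 7 among them. No label pairs the libraries of A7 with those of mock, so this pairing is an assumption. The split of the paired calls moved with the scaling: 247 higher and 73 lower with library totals alone, 25 and 50 with factors from miRNAs alone, and 438 and 51 with factors from C/D snoRNAs alone. The median log2 fold change of all features in the paired fit was -0.05, and it was 0.18, -0.13 and 0.37 under those scalings. In 55 features the paired call held in the same direction under all 5 scalings, 25 higher and 30 lower: 22 miRNAs, 15 C/D snoRNAs, 8 nuclear tRNA genes, 6 Y RNA pseudogenes and 4 others. Of these, 18 higher and 26 lower also held with each replicate number left out in turn. Those fits reuse the libraries behind the calls and have fewer of them, so they are no independent check.

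**Figure D2:**
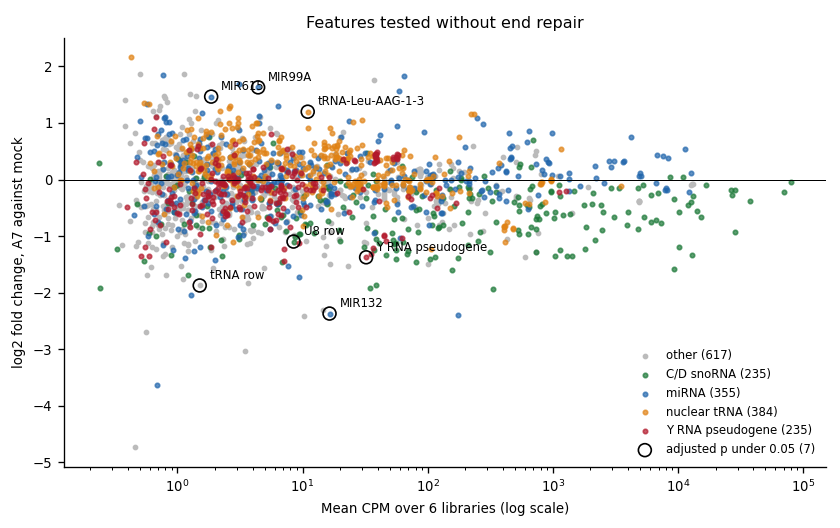
Mean level over the 6 libraries (CPM, log axis) against the log2 fold change of A7 over mock for the 1826 features tested, coloured by RNA class, from the fit over 15 libraries. The 7 circled features have an adjusted p under 0.05, and most C/D snoRNAs lie below 0 while most nuclear tRNAs lie above it.

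MIR132, a miRNA induced by activity and inflammatory signals in many cells, had the largest change among the 7 features that passed over 15 libraries. It stood at 5.46, 5.48 and 5.03 CPM in A7 and at 28.04, 28.62 and 26.01 CPM in mock. Every A7 library was below every mock library, and MIR132 fell by 2.37 on the log2 scale (SE 0.43, edgeR adjusted p = 0.035, and 0.000276 in the paired fit). MIR212, from the same primary transcript, stood at 0.638, 0.222 and 0.612 CPM in A7 and at 1.95, 1.84 and 2.41 CPM in mock. Its log2 difference was -2.04 (SE 0.46, edgeR adjusted p = 0.093), and it fell in the paired fit (adjusted p = 0.00967, and 0.051 with factors from miRNAs alone). A4 held 8.91 ± 2.12 CPM of MIR132 (SD, n = 3), E4 4.72 ± 0.161 CPM and G8 2.25 ± 2.12 CPM, so that the mock mean was above those of the 4 THP-1 groups. A7 against the mean of A4 and E4 gave -0.28 (adjusted p = 0.65).

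The miR-106a-363 cluster on the X chromosome encodes 6 miRNAs related to those of the oncogenic miR-17-92 cluster, and its members parted in these libraries. MIR363 stood at 50.8, 64.4 and 51.4 CPM in A7 and at 336.7, 328.0 and 212.0 CPM in mock. MIR20B stood at 2.84, 5.18 and 4.97 CPM in A7 and at 11.98, 15.43 and 15.51 CPM in mock. Neither group overlapped the other. In the fit over 15 libraries neither passed (log2 difference -2.40, SE 0.70, edgeR adjusted p = 0.182, and -1.72, SE 0.58, adjusted p = 0.27). Both fell in the paired fit, by 2.34 (adjusted p = 0.000276) and 1.72 (adjusted p = 0.00162), under all 5 scalings and without each replicate number. MIR92A2, in the same cluster, went the other way in level: 8400, 8632 and 8810 CPM in A7 against 6149, 6773 and 6449 CPM in mock, which did not pass (edgeR adjusted p = 0.67, and 0.067 in the paired fit). Its reads cannot be told from those of MIR92A1, whose mature 3p sequence is the same. MIR106A differed by -0.59 (paired adjusted p = 0.055) and MIR19B2 by 0.11 (0.76), and MIR18B had too few counts for the test. Of the 6 members 5 were tested, and 2 fell in the paired fit, beside 8.49% of all features. None of the 6 members of the miR-17-92 cluster passed (median 0.11). The level of MIR363 differed between the THP-1 groups as well, at 235.2 ± 78.9 CPM in A4 and 19.9 ± 1.55 CPM in E4 (SD, n = 3).

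The miR-181 family shares a seed across loci. Its members on chromosome 19, MIR181C and MIR181D, fell in the paired fit. MIR181D stood at 3.90, 4.66 and 3.33 CPM in A7 and at 10.5, 13.3 and 10.5 CPM in mock, and fell by 1.49 (SE 0.18, edgeR paired adjusted p = 0.00207). MIR181C had at most 0.148 CPM in A7 and 1.02 to 1.68 CPM in mock, so its fold change rests on few reads (edgeR paired adjusted p = 0.00944). MIR181A1, MIR181A2 and MIR181B1, at 59.0 to 157.2 CPM in A7 and 66.3 to 153.0 CPM in mock, overlapped between the groups, with paired log2 differences of -0.04, 0.03 and -0.13. The difference between loci was not tested.

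On the higher side, MIR99A and MIR615 passed the fit over 15 libraries. MIR99A, of the miR-99/100 family known for targeting MTOR, stood at 6.24, 7.70 and 6.12 CPM in A7 and at 1.67, 2.56 and 2.22 CPM in mock. It rose by 1.63 on the log2 scale (SE 0.30, edgeR adjusted p = 0.035). MIR615, which lies in an intron of HOXC5, stood at 2.77, 2.52 and 2.92 CPM in A7 and 0.929, 0.879 and 1.16 CPM in mock, and rose by 1.47 (SE 0.28, edgeR adjusted p = 0.035). For both, all A7 libraries were above all mock libraries. MIR99A was also higher in A7 than in the mean of A4 and E4 (log2 1.46, edgeR adjusted p = 0.013), as was MIR615 (1.02, adjusted p = 0.029), although E4 alone held 3.30 ± 0.172 CPM of MIR615 (SD, n = 3). The related MIR99B, at 333.4 to 353.9 CPM in A7 and 294.7 to 320.6 CPM in mock, was far more abundant and did not pass (edgeR adjusted p = 0.92, paired 0.453).

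Further miRNAs passed in the paired fit alone. MIR196A2, in the HOXC cluster like MIR615, stood at 5.04, 4.51 and 4.69 CPM in A7 and at 1.67, 1.20 and 1.54 CPM in mock, and rose by 1.73 (SE 0.21, edgeR paired adjusted p = 0.00207). MIR143, a miRNA of smooth muscle and fibroblasts, stood at 79.7, 103.2 and 81.4 CPM in A7 and at 35.5, 33.3 and 20.2 CPM in mock, and rose by 1.64 (SE 0.20, edgeR paired adjusted p = 0.00207). Its cluster partner MIR145 did not: 3.97, 6.29 and 7.28 CPM against 5.11, 6.55 and 6.36 CPM (paired adjusted p = 0.93). MIR151A, at 101.9, 115.5 and 86.9 CPM in A7 and 31.8, 31.6 and 21.8 CPM in mock, rose by 1.89 (SE 0.17, edgeR paired adjusted p = 0.000529). These rises held under all 5 scalings and with each replicate number left out, but none passed in the fit over 15 libraries, where the adjusted p was 0.158 for MIR196A2, 0.518 for MIR143 and 0.307 for MIR151A.

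Among the 7 haematopoietic and monocytic miRNAs, 2 rose and 1 fell in the paired fit, beside 5.68% and 8.49% of all features. None of the 7 passed over 15 libraries. MIR155, an inflammatory miRNA, stood at 5158, 5701 and 5081 CPM in A7 and 3258, 3401 and 2833 CPM in mock, a paired rise of 0.79 (SE 0.14, edgeR adjusted p = 0.00843). MIR146A, a feedback inhibitor of NF-kappaB signalling, stood at 290.8, 380.9 and 342.3 CPM in A7 and 152.7, 182.2 and 141.7 CPM in mock, a paired rise of 1.12 (SE 0.15, edgeR adjusted p = 0.00321). MIR342 fell by 0.55 (edgeR paired adjusted p = 0.0441), but did not pass with library totals or with factors from miRNAs or C/D snoRNAs alone. MIR222, known for targeting the cell cycle inhibitor CDKN1B, stood at 1336, 1288 and 1128 CPM in A7 and 749, 688 and 674 CPM in mock and rose by 0.86 (edgeR paired adjusted p = 0.00711). MIR221, from the same transcript and with the same seed, differed by 0.32 (paired adjusted p = 0.16). Of all 332 miRNA rows in the paired fit 29 rose (8.73%) and 21 fell (6.33%), beside 5.68% and 8.49% of all features, with a median of 0.09 against -0.05 for all. With factors from miRNAs alone 17 rose and 8 fell, and with factors from C/D snoRNAs alone 122 rose and 7 fell. Of the 12 let-7 rows 3 rose, beside 5.68% of all features, and none fell, with a median of 0.28. None of them passed when the scaling came from miRNAs alone.

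**Figure D3:**
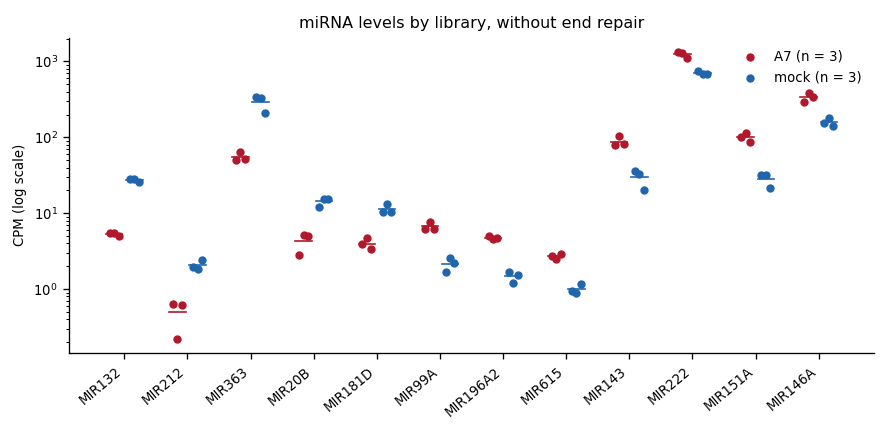
Level in CPM (log axis) of 12 miRNAs in the 3 A7 (red) and 3 mock (blue) libraries, 1 point a library, with lines at group means. MIR132, MIR212, MIR363, MIR20B and MIR181D are lower in every A7 library than in any mock library, and the other 7 are higher.

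Among RNAs of polymerase III, the vault RNA family was the only 1 of the family sums to rise, and only in the paired fit (log2 0.51, SE 0.14, edgeR paired adjusted p = 0.0423, against 0.676 over 15 libraries). Most of it was VTRNA2-1 (865 ± 351 CPM of a sum of 1009 ± 368 CPM in A7, SD, n = 3), also called nc886, a regulator of the kinase PKR, read from chromosome 5, positions 136080497 to 136080597 of GRCh38 in the table. It is printed in full because no other row of this family, grouped here by gene name, passed in the paired fit. The sequence is from GENCODE v29 (GRCh38, chr5:136080470-136080597, minus strand), whose transcript is longer than the row.
VTRNA2-1: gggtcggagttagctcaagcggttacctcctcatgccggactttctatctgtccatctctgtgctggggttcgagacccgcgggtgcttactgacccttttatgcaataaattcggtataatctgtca
VTRNA2-1 stood at 1262, 736 and 597 CPM in A7 and at 903, 504 and 413 CPM in mock. The groups overlapped, but within each replicate number A7 was above mock, and it rose by 0.56 in the paired fit (SE 0.14, edgeR adjusted p = 0.034, against 0.688 over 15 libraries). With factors from miRNAs alone, no vault RNA passed in the paired fit. VTRNA1-1 was close, at 156.1, 120.3 and 130.0 CPM against 121.7, 102.6 and 112.1 CPM (paired adjusted p = 0.204). VTRNA1-2 and VTRNA1-3 were under 6 CPM in group mean and did not pass (edgeR paired adjusted p = 0.946 and 0.643).

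The other THP-1 groups were far lower in VTRNA2-1, at 170.7 ± 25.9 CPM in A4 and 150.6 ± 15.8 CPM in E4 (SD, n = 3). A7 was 2.43 above the mean of A4 and E4 on the log2 scale (edgeR adjusted p = 0.0043). Mock was likewise above both: A4 against mock gave -1.83 and E4 against mock -2.01, comparisons that share the mock libraries with that of A7. Within A7 and within mock, library 1 was the highest of 3. In the comparison of A7 with A4 and E4, 63 of 1826 features passed (3.45%, with 44 higher, 2.41%, and 19 lower, 1.04%), but none without A7 library 1, 1 without A7 library 2 and 33 without A7 library 3, while 389 passed when G8 was left out.

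The 4 Y RNAs were all lower in A7 than in mock in group mean. RNY5 stood at 146.8, 145.2 and 147.5 CPM in A7 and at 240.0, 273.7 and 347.9 CPM in mock. No A7 library reached a mock library, and RNY5 fell by 0.92 in the paired fit (SE 0.17, edgeR adjusted p = 0.00843, against 0.233 over 15 libraries). RNY1, at 1173, 1222 and 1011 CPM against 2048, 1609 and 1480 CPM, fell by 0.55 in the paired fit (SE 0.15, edgeR adjusted p = 0.0423). RNY3, at 208.1, 157.7 and 326.7 CPM against 279.2, 263.1 and 502.5 CPM, overlapped between groups and fell by 0.56 (SE 0.15, edgeR paired adjusted p = 0.0413). RNY4 did not pass (1832 ± 127 CPM against 1997 ± 325 CPM, SD, n = 3, edgeR paired adjusted p = 0.755). None of the 4 passed with factors from miRNAs alone or from C/D snoRNAs alone, and 1 did with library totals. RNY5 was also below the mean of A4 and E4 (log2 -1.24, edgeR adjusted p = 0.029).

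Y RNA genes left many copies in the genome, and 16 of 213 such pseudogenes fell in the paired fit (7.51%, near the 8.49% of all features) while none rose, with a median of -0.12. That direction turned with the scaling: 35 rose and 7 fell with factors from C/D snoRNAs alone. The pseudogene on chromosome 9, positions 70311607 to 70311701, fell in the fit over 15 libraries too. It stood at 16.2, 18.8 and 18.8 CPM in A7 and at 43.1, 43.6 and 53.0 CPM in mock, a log2 difference of -1.37 (SE 0.26, edgeR adjusted p = 0.035). It is set beside RNY4, its nearest gene among RNY1, RNY3 and RNY4 with 83.3% of RNY4's bases matched, both from GENCODE v29, with capitals for bases that differ from RNY4 in the alignment.
RNY4: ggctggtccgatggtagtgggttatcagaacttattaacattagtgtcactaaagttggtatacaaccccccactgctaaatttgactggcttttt
Y RNA pseudogene: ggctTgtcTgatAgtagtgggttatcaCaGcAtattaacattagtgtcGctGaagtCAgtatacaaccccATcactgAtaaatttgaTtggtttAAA
Reads of a Y RNA can align to several copies, so a single copy is uncertain. RNY4 itself did not pass. Of 235 pseudogenes tested over 15 libraries, 207 matched a GENCODE transcript by gene name and chromosome or else by position. Of these, 100 were nearest to RNY1, 87 to RNY3 and 20 to RNY4. In the paired fit 6 of 90 tested copies nearest to RNY1, 3 of 76 nearest to RNY3 and 3 of 20 nearest to RNY4 fell, beside 8.49% of all features.

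**Figure D4:**
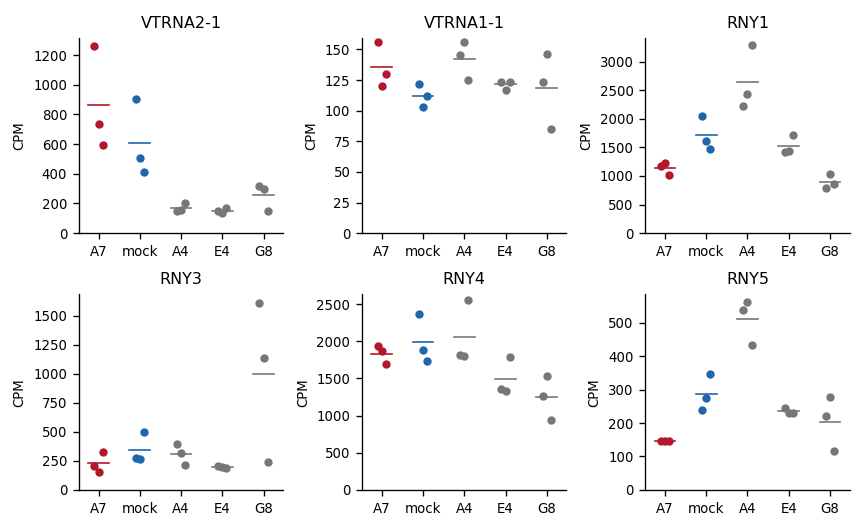
Level in CPM (linear axes from 0) of 2 vault RNAs and the 4 Y RNAs in the 3 libraries of A7 (red), mock (blue), A4, E4 and G8 (grey), 1 point a library, with lines at group means. VTRNA2-1 is above 400 in every A7 and mock library and under 400 in the others, and RNY5 is lower in each A7 library than in every library of mock, A4 and E4, with 1 G8 library lower still.

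Of 375 nuclear tRNA rows, 47 rose (12.5%) and 4 fell (1.07%) in the paired fit, beside 5.68% and 8.49% of all features (median 0.25, against -0.05 for all). The median was above 0 under every scaling tried in the paired fit, at 0.16 with factors from miRNAs alone, where 7 rose and 2 fell, and at 0.67 with factors from C/D snoRNAs alone. Summed over all copies, nuclear tRNA was not higher: 31429, 24957 and 20549 CPM in A7 against 38128, 23679 and 21020 CPM in mock (log2 -0.11, edgeR adjusted p = 0.91, paired 0.88). Copies of a tRNA share reads, so counts of rows are not counts of independent genes.

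Copies of initiator methionine tRNA, which starts translation, were all above 0 in the paired fit (9 of 9, median 0.73), and 5 rose (55.6%, beside 5.68% of all features). Their sum was 58.2, 57.6 and 55.8 CPM in A7 and 40.4, 38.1 and 33.3 CPM in mock, without overlap. With factors from miRNAs alone none of the 9 passed (median 0.65). tRNA-Leu-AAG-1-3, at 14.7, 15.3 and 15.99 CPM in A7 and 7.61, 5.20 and 7.22 CPM in mock, was the tRNA gene that rose over 15 libraries (log2 1.20, SE 0.23, edgeR adjusted p = 0.036). It lies on chromosome 5, positions 181101840 to 181101921. A copy of tRNA-His-GTG-1-5, which decodes histidine codons, stood at 361.3, 313.9 and 290.1 CPM in A7 and at 165.6, 146.8 and 119.7 CPM in mock and rose by 1.20 in the paired fit (SE 0.15, edgeR adjusted p = 0.00234). Of 21 serine tRNA rows 12 rose in the paired fit (57.1%, beside 5.68% of all features, median 0.86), but 1 with factors from miRNAs alone, and the abundant tRNA-Ser-TGA-1-1 did not pass (3361 ± 490 CPM against 3645 ± 668 CPM, SD, n = 3, paired adjusted p = 0.778). The elongator tRNA-Met-CAT-1-24 fell, at 65.3, 61.7 and 63.3 CPM against 116.9, 178.5 and 152.3 CPM (log2 -1.18, SE 0.18, edgeR paired adjusted p = 0.0056, 0.137 over 15 libraries), and was 30.8 ± 4.42 CPM in A4 and 30.2 ± 2.05 CPM in E4.

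RN7SK, RMRP, RPPH1, RN7SL1 and RN7SL2 did not pass in either fit. In the paired fit 1 of 12 rows of snaR rose and 1 of 37 of 5S pseudogenes fell, beside 5.68% and 8.49% of all features. No row of those 2 families passed with factors from miRNAs alone. RN7SK, the scaffold that holds the elongation factor P-TEFb inactive, stood at 171.7, 133.4 and 116.6 CPM in A7 and 204.8, 119.8 and 147.7 CPM in mock (edgeR adjusted p = 0.914, paired 0.69). RMRP, the RNA of RNase MRP, stood at 203.1, 227.8 and 227.5 CPM in A7 and 281.4, 292.1 and 275.6 CPM in mock. Its groups did not overlap, but the log2 difference of -0.37 did not pass (SE 0.21, edgeR adjusted p = 0.55, paired 0.163). RPPH1, the RNA of RNase P, was at 27.5 ± 2.91 CPM and 28.9 ± 10.3 CPM (SD, n = 3). The 17 rows of 5S rRNA had a median of -0.33 in the paired fit and none passed. BCYRN1 and RNU6ATAC had too few counts for the test. Of 23 family sums, none passed over 15 libraries (1 at an unadjusted p under 0.05 by edgeR, and none after adjustment by DESeq2), and 2 did in the paired fit: vault RNA and the 7SK pseudogenes, which fell by 0.69 from a level of 2.84 ± 0.0225 CPM against 4.75 ± 0.954 CPM (edgeR paired adjusted p = 0.0431).

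Of 224 C/D snoRNA rows, 68 fell (30.4%) and 2 rose in the paired fit, beside 8.49% and 5.68% of all features (median -0.46), and 15 fell under all 5 scalings. Their sum did not pass in either fit (log2 -0.40, SE 0.28, edgeR adjusted p = 0.656, and -0.37 with 0.157 in the paired fit). The direction of the median held in each scaling but shrank to -0.04 with factors from C/D snoRNAs alone, where 27 fell and 15 rose. Over 15 libraries 1 of 235 passed, a row annotated as U8 on chromosome 11, positions 123301390 to 123301523. It stood at 4.97, 5.03 and 6.19 CPM in A7 and 12.9, 11.8 and 9.92 CPM in mock (log2 -1.10, SE 0.20, edgeR adjusted p = 0.035). SNORD118, the U8 snoRNA gene that acts in 28S and 5.8S rRNA maturation, stood at 32.1, 35.6 and 33.8 CPM in A7 and 77.9, 77.3 and 68.5 CPM in mock. Its groups lay far apart, and it fell by 1.10 in the paired fit (SE 0.16, edgeR adjusted p = 0.00483, 0.143 over 15 libraries). SNORD13, or U13, which guides acetylation of 18S rRNA, stood at 113.8, 94.4 and 204.3 CPM in A7 and 306.1, 410.6 and 865.3 CPM in mock, and fell by 1.84 (SE 0.19, edgeR paired adjusted p = 0.00126). SNORD3A, the U3 snoRNA of early rRNA cleavage, did not pass (paired adjusted p = 0.367), and mock library 3 was at 104.4 CPM against 21.1 and 23.5 CPM in the other two.

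SnoRNAs released from the same host transcript were counted by host. The 10 C/D snoRNAs in introns of GAS5 were all below 0 in the paired fit (median -0.48). Of them 4 fell, beside 8.49% of all features and the larger share of all C/D snoRNA rows given above. With factors from C/D snoRNAs alone 2 fell, and SNORD44, SNORD77 and SNORD78 were above 0 (0.23, 0.24 and 0.15). SNORD80 of that host stood at 663.2, 495.8 and 1254 CPM in A7 and 1326, 1605 and 3251 CPM in mock and fell by 1.32 (SE 0.17, edgeR paired adjusted p = 0.00243), while SNORD44 of the same host differed by -0.19 (paired adjusted p = 0.46). Of the 8 in introns of SNHG1, 5 fell (median -0.69), beside the same shares. With library totals, factors from miRNAs alone or factors from C/D snoRNAs alone 3 of the 8 fell (median -0.27 in the last). They include SNORD26, at 7315, 4752 and 9830 CPM against 14359, 14663 and 26442 CPM (log2 -1.31, SE 0.17, edgeR paired adjusted p = 0.00243). SNORD45C, at 69.0, 49.8 and 113.7 CPM against 172.1, 183.4 and 351.4 CPM, fell by 1.57 (SE 0.17, edgeR paired adjusted p = 0.00162). For each of these snoRNAs, library 3 was the highest of its group in both A7 and mock. A7 was also below the mean of A4 and E4 in SNORD26 (log2 -1.63, edgeR adjusted p = 0.029) and SNORD45C (-1.80, adjusted p = 0.045).

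**Figure D5:**
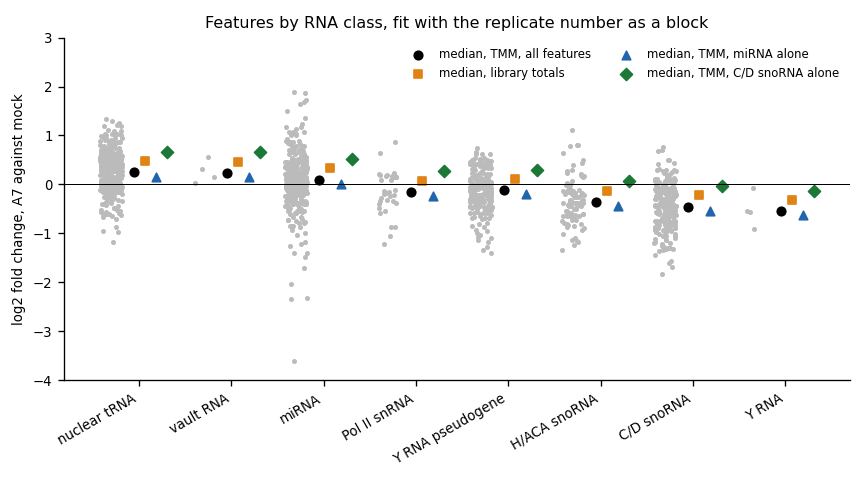
Log2 fold change of A7 over mock in the paired fit for each feature of 8 RNA classes (grey points), with the class median under 4 scalings (symbols). The median of nuclear tRNA is above 0 and that of C/D snoRNA and Y RNA below 0 under the 4 scalings, while those of Y RNA pseudogenes, H/ACA snoRNA and Pol II snRNA lie on both sides of 0.

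Of 88 H/ACA snoRNA rows 12 fell (13.6%, beside 8.49% of all features) and 1 rose in the paired fit (median -0.37), and the median was 0.06 with factors from C/D snoRNAs alone. Mock library 3 stood apart in this class, with a sum of 6783 CPM against 1536 and 1701 CPM in the other mock libraries and 1603, 970.1 and 2556 CPM in A7. Without number 3, 9 of 84 fell and 10 rose (median -0.15), and without mock library 3 the difference in share of counts turned from -0.132 to 0.039 percentage points. SNORA18 stood at 337 ± 150 CPM in A7 and 867 ± 762 CPM in mock (SD, n = 3) and fell by 1.09 (SE 0.26, edgeR paired adjusted p = 0.0251, 0.119 with factors from miRNAs alone, 0.552 over 15 libraries). None of 22 scaRNAs, the guides of Cajal bodies, passed in the paired fit. The remaining called row over 15 libraries, a tRNA-annotated row of low level on chromosome 7, positions 97141584 to 97141638, stood at 0.780, 0.592 and 0.544 CPM in A7 and 2.69, 1.84 and 2.60 CPM in mock (log2 -1.87, SE 0.33, edgeR adjusted p = 0.035).

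The same groups were also sequenced with end repair, 3 libraries each, where 454 of 9095 features passed between A7 and mock (4.99%, 293 higher, 3.22%, and 161 lower, 1.77%, by edgeR). End repair lets RNA with other ends enter a library. There 62 of 203 miRNA rows rose and none fell (30.5%, beside 3.22% of all features, median 0.99), and the miRNA sum rose by 1.07 (edgeR adjusted p = 0.047). Among features above, MIR222 (log2 1.80, edgeR adjusted p = 0.0041), MIR146A (2.22, 0.0036), MIR155 (2.45, 0.0041), MIR151A (2.21, 0.0030) and tRNA-Arg-ACG-1-3 (1.06, 0.00645) were among the features that rose there. Several classes lay on the other side of 0 with end repair. Of 210 C/D snoRNA rows 52 rose and none fell (median 0.70), and of 159 Y RNA pseudogenes 11 rose and none fell (median 0.65). Of all features there 3.22% rose and 1.77% fell. All 9 initiator methionine rows lay below 0 (median -0.37), and none passed. RNY5 differed in the other direction with end repair (log2 1.29, adjusted p = 0.032), MIR363 did not pass (-0.79, adjusted p = 0.36) and MIR132 had too few counts. In edgeR's test of the interaction, 0 of 9317 features passed (RNY5 adjusted p = 0.085), so none of these is shown to differ between arms. Among the named features and family sums, 31 passed that test without mock library 1 of the libraries with end repair, and 4 without A7 library 1 of them.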

How the data were processed

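The authors' deposited values are raw counts per annotated feature, with no normalization. The submitters' processing notes name Trim Galore, FastQC, Bowtie2 2.3.5.1, SAMtools 1.9, deepTools 3.2.1 and bedtools 2.28.0, and GRCh38. The sources used here do not give how reads with several alignments were counted. Rows overlap, so that summing all 175946 of them counts each read 18.1 to 18.9 times, and 85935 rows free of overlap were used. Rows on the other strand of a small RNA held at least its count in 130 of 130 cases, so strand was ignored in the counting. The table holds 30 of 42 samples, and con and the POLR3G oligonucleotide were not analysed here.

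The main test was edgeR 4.0.16 (R 4.3.3) by quasi-likelihood over 15 libraries, with TMM factors, filterByExpr and a Benjamini-Hochberg threshold of 0.05. Sums of families with at least 30 counts were added as rows. TMM factors were 1.18 to 1.33 in A7 and 1.01 to 1.08 in mock. Libraries with the same number deviated together (r = 0.161, 0.414 and 0.494), so the numbers were taken to pair them, although mock library 1 correlated more with A7 library 2 (0.396). No label states this pairing, which rests on these same data. Over 12 libraries, without G8, edgeR's common coefficient of variation was 31.9% with the block and 29.7% without it. On simulated counts of 1757 features the test recovered 32.7% of 2-fold, 85.7% of 4-fold and 100% of 8-fold changes, with 2 false calls. The simulated spread was that of the fit without G8 (coefficient of variation 29.7%, against 39.0% over 15 libraries), alike for all features. Recovery in the real test over 15 libraries may thus be lower. DESeq2 1.42.0 and other scalings, filters, library sets and left-out libraries were alternatives. Named features were the polymerase III RNAs, the 10 largest separated rises and falls at or above the median level of 5.53 CPM (called ones first, then by smallest p), the 5 most abundant of 5 classes and the cell type markers. Cluster and family members, MIR99A, MIR615 and the other miRNAs and snoRNAs were named after their values were seen. The libraries compared, the lists and the tests were chosen with earlier results of these data known. Levels in CPM do not correct for length.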

Additional observations from a re-analysis of the deposited data

How the results depend on the processing

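The 7 calls of A7 against mock became 84 without G8, 36 with the 6 libraries alone, 39 by DESeq2's test, 1 with every deposited row kept, 0 with library totals alone and 0 with factors from C/D snoRNAs alone (205 were at an unadjusted p under 0.05 over 15 libraries), and 0 to 0 with each library left out in turn. The replicate block gave 237 calls, and within it 68 over 12 libraries, 489 with C/D snoRNA factors, 75 with miRNA factors and 113 to 251 with a replicate number left out (113 without number 2). Of 171 named features tested, 60 passed only with the replicate block and 7 in both fits, and 2 of 23 family sums passed only with it. It changed no other call among them. A7 against A4 and E4 (63 calls) gave 389 without G8, 151 with library totals (132 higher and 19 lower), 131 without a filter (20 higher and 111 lower) and 0 to 33 without an A7 library. The interaction (0 calls) gave 1 without a filter and 0 to 31 with a library left out, 31 without mock library 1 with end repair. No called value reversed among the named features and sums. The cause of these shifts was not tested. Depth limits rows near 1 CPM, such as MIR181C, and 2-fold changes were recovered in 32.7% of cases simulated with the spread of the fit without G8.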

Other observations

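Imprinted loci hold long arrays of C/D snoRNAs. Of 44 such snoRNAs tested in the paired fit, 15 fell (34.1%) and none rose (median -0.67). This stands beside 8.49% of all features falling and the larger share of all C/D snoRNA rows given above, to which it is close. With factors from miRNAs alone 2 fell, and with factors from C/D snoRNAs alone 6 fell and 2 rose (median -0.27). Nuclear tRNA differed by amino acid in the count of rows that passed there. All 20 proline rows were above 0 and 5 rose (25%, median 0.51), and of 23 alanine rows 4 rose (17.4%, median 0.48). These stand beside 5.68% of all features and the larger share of all nuclear tRNA rows given above. With factors from miRNAs alone none of either passed (medians 0.43 and 0.39), and with factors from C/D snoRNAs alone 20 and 19 rose. In the paired fit none of 31 valine rows (median -0.08) or 17 glutamate rows (median -0.01) passed, and both medians were above 0 with factors from C/D snoRNAs alone (0.34 and 0.41). Differences between amino acids were not tested, and rows of one tRNA share reads.

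MIR200C, an epithelial miRNA, stood at 28.7, 35.7 and 31.4 CPM in A7 and 14.8, 17.2 and 14.6 CPM in mock and rose by 1.07 in the paired fit (SE 0.17, edgeR adjusted p = 0.00591, 0.346 over 15 libraries). MIR10A stood at 7.66, 6.07 and 5.99 CPM in A7 and 12.3, 9.11 and 9.34 CPM in mock and fell by 0.60 (edgeR paired adjusted p = 0.0478), but did not pass with library totals or with factors from miRNAs or C/D snoRNAs alone.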
